A study of Mus musculus with 60 samples.

Results

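The cytosolic ribosomal protein genes encode the proteins of the large (Rpl, Rplp) and small (Rps) subunits of the ribosome outside mitochondria. They were taken from the deposited table by symbol alone, as Rpl or Rps followed by a number with an optional a or x, together with Rplp0, Rplp1, Rplp2 and Rpsa. The rule found 76 genes among the 23127 in the table, 46 for the large and 30 for the small subunit. Of these, 72 (43 large, 29 small) reached 10 counts in at least 2 of the 6 RNA libraries and entered the tests, beside 13744 genes in all.

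RNA was measured in explants of ICR mouse embryos, kept for 48 hours in N2B27 medium either with EPZ005687, an inhibitor of the H3K27 methyltransferase EZH2, or with an equal amount of DMSO, its solvent. Each arm gave 1 polyA RNA library from each of 3 regions, extraembryonic (ExE), posterior embryonic (P) and anterior embryonic (A). The labels give neither the stage nor the number of embryos behind a library, nor whether the 3 regions of an arm came from the same embryos. The column names carry one code for the 3 EPZ005687 libraries and another for the 3 DMSO libraries, so treatment and whatever that code stands for cannot be told apart. The series holds 60 samples, and the 54 for H3K27me3 ChIP, ChIP input and bisulfite sequencing were not analysed here.

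A ribosome reads mRNA on its small subunit and joins amino acids on its large subunit, and the cytosolic ribosomal proteins are needed in equal amounts, except those of the stalk. Most vertebrate ribosomal protein mRNAs begin with a C followed by a run of pyrimidines, the terminal oligopyrimidine (TOP) start, through which mTORC1 and Larp1 adjust their translation and stability together. Ribosome production is high in the fast-dividing cells of the gastrula, and lowered dosage of single ribosomal protein genes in mice gives defects of particular tissues, such as the axial skeleton in Rpl38 mutants.

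RefSeq (GRCm38.p6, the assembly also named mm10) gave a start region for 56 of the 76 genes. The windows below are shown because they include genes from both ends of the treatment comparison (Rps19 and Rpl13 among the highest, Rps25 the lowest) and of the region comparisons, and some with a TOP start. Each runs 10 bases before the annotated start to 20 bases from it on, 5′ to 3′ on the gene's strand, and capitals mark the unbroken pyrimidine run that begins at the start itself.
Rpl15 (chr14:18270967-18270996, minus strand): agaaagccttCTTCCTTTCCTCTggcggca
Rpl38 (chr11:114668570-114668599, plus strand): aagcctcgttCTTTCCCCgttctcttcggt
Rps6 (chr4:86857348-86857377, minus strand): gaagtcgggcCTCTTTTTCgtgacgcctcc
Rps15a (chr7:118116128-118116157, minus strand): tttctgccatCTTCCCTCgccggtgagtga
Rps28 (chr17:33824543-33824572, minus strand): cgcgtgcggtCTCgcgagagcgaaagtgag
Rpl39 (chrX:37085203-37085232, minus strand): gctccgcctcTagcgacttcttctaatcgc
Rps19 (chr7:24884582-24884611, plus strand): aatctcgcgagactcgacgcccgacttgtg
Rpl13 (chr8:123102340-123102369, plus strand): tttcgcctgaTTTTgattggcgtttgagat
Rps25 (chr9:44407704-44407733, plus strand): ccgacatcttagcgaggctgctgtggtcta
Rps2 (chr17:24720053-24720082, plus strand): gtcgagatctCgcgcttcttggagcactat
Rpl4 (chr9:64173377-64173406, plus strand): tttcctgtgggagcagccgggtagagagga
Rplp0 (chr5:115559457-115559486, plus strand): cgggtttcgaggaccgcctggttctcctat

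A C at the annotated start followed by at least 4 pyrimidines was found in 12 of the 56 genes (21.4%), beside 671 of 27025 start regions in the whole table (2.48%). The first 4 windows above have it, and the other 8 do not. An annotated start can lie some bases from the start used in these tissues, and a run of 7 or more pyrimidines lay somewhere in the 30-base window of 26 genes (46.4%), beside 17.9% of all start regions. In the 300 bases from 250 before the start to 50 after it, on either strand, CCGGAAG, a core of ETS family sites, was found in 22 genes (39.3%, beside 9.14% of all). GGGCGG, an Sp1 family motif, was found in 33 (58.9%, beside 35.9%), AAGATGG, a YY1 motif, in 9 (16.1%, beside 6.46%) and TATAAA in 6 (10.7%, beside 14.2%). These matches are descriptions of letters, not binding sites.

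The 6 libraries held between 1000342 and 5812535 counts. Rn45s, the precursor of ribosomal RNA and no mRNA, took 0.521%, 6.54% and 1.44% of the counts in ExE, P and A with EPZ005687, against 0.0853%, 0.0538% and 0.109% with DMSO, so the posterior EPZ005687 library stands apart. The summed counts of 10 visceral endoderm markers were 2.25%, 0.836% and 0.374% in ExE, P and A with EPZ005687 and 3.06%, 1.10% and 0.0068% with DMSO, with 4 of the 10 at 0 in A with DMSO. The 6 primitive blood markers summed to 3.49%, 0.132% and 0.0020% with EPZ005687 and 0.0421%, 0.835% and 0.0018% with DMSO. The 7 parietal endoderm markers summed to 0.444%, 0.184% and 0.0686% with EPZ005687 and 1.12%, 0.170% and 0.0256% with DMSO. The 7 markers of neural and anterior ectoderm summed to 0.0018%, 0.0130% and 0.0758% with EPZ005687 and 0.0031%, 0.0118% and 0.240% with DMSO. The 5 of streak and nascent mesoderm summed to 0.00080%, 0.0061% and 0.0206% with EPZ005687 and 3.4e-05%, 0.0026% and 0.00045% with DMSO. The 7 trophoblast markers were near 0 in both ExE libraries (0.0020% summed with EPZ005687, 0.00024% with DMSO, and Cdx2 at 0 in both), so ExE here is extraembryonic tissue with visceral endoderm RNA and next to no trophoblast RNA by these markers. The part of these differences in the results below was not tested. In tissue RNA, a change in the number of cells of a type and a change in RNA per cell cannot be told apart.

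Ribosomal protein genes took a larger share of the counts in every EPZ005687 library than in the DMSO library of the same region, and by far the largest share in posterior tissue. They held 4.67% (95% interval 4.64% to 4.69%) of all counts in ExE, 13.57% (13.53% to 13.62%) in P and 5.87% (5.83% to 5.92%) in A with EPZ005687. With DMSO they held 2.29% (2.28% to 2.31%), 3.25% (3.24% to 3.27%) and 2.94% (2.92% to 2.97%). The intervals are exact binomial (Clopper-Pearson) ones and cover counting error only. The 3 EPZ005687 values all lay above the 3 DMSO values. A higher share on library totals was not particular to this family. Proteasome genes summed to 1.22%, 1.30% and 1.49% in ExE, P and A with EPZ005687, against 0.834%, 0.901% and 0.836% with DMSO. Translation elongation factors summed to 1.07%, 0.939% and 1.79% with EPZ005687, against 0.765%, 0.994% and 0.802% with DMSO, so they were lower in P. The large subunit genes made up 59.8%, 55.3% and 60.0% of the ribosomal protein counts in ExE, P and A with EPZ005687 and 62.6%, 61.3% and 59.1% with DMSO. Both subunits thus took part in the higher share, and the posterior EPZ005687 library had the lowest large subunit fraction.

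**Figure D1:**
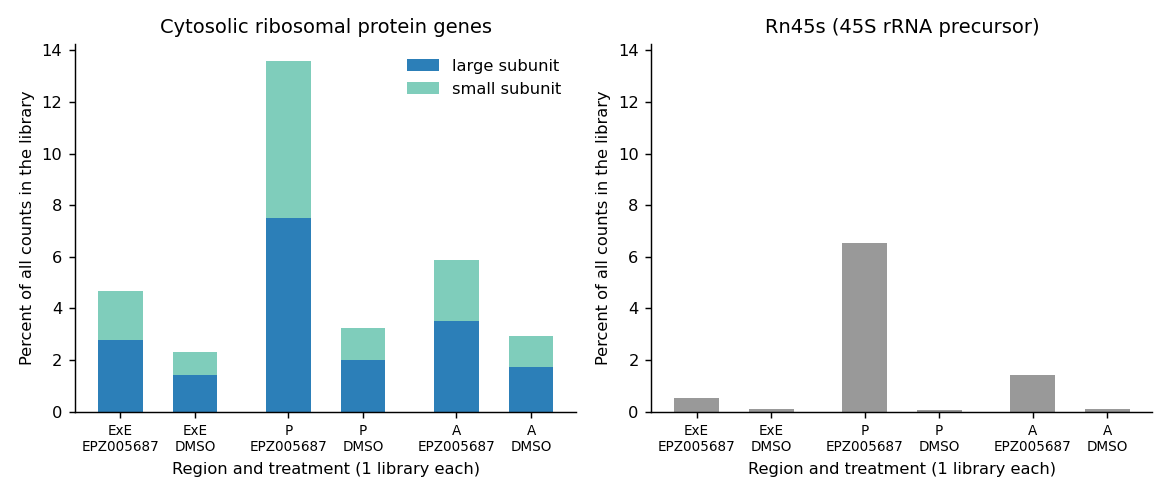
Percent of all counts in each of the 6 libraries taken by cytosolic ribosomal protein genes (left, stacked by subunit) and by the ribosomal RNA precursor Rn45s (right), by region and treatment, with 1 library per bar. The posterior EPZ005687 library has the highest value in both panels (13.6% and 6.54%).

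Gene by gene, the posterior shift covered nearly the whole family and was much larger than the shift in the other regions. The log2 ratio of EPZ005687 over DMSO within a region was taken from counts scaled by TMM to a library total of 1e+06 (CPM below), with a prior count of 2. Its median over the 72 genes was 0.25 in ExE, 2.48 in P and 0.31 in A, beside 0.05, -0.01 and 0.15 over all 13744 genes. At least 2-fold higher with EPZ005687 were 8 genes in ExE (28.8% of all genes were), 64 in P (26.1% of all) and 20 in A (32.3% of all). At least 2-fold lower were 4 in ExE (21.5% of all), 0 in P (26.7% of all) and 4 in A (22.3% of all). In 5 members the ratio was at least 2-fold higher in one region and at least 2-fold lower in another, which was so for 23.8% of all genes. The share of members 2-fold higher was thus above that of all genes in P and below it in ExE and A. With 1 library per region and treatment these ratios have no replicate check.

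The ratio was largest in P for 67 of the 72 genes, in A for 4 and in ExE for 1. It was above 0 for 56 genes in ExE (51.3% of all genes), 70 in P (49.6% of all) and 52 in A (53.0% of all). It was above 0 in all 3 regions for 45 genes, in ExE and P but not A for 10, in P alone for 9 and in P and A but not ExE for 6. Shares over all genes were not taken for these patterns or for the region of the largest ratio. Rpl4 was above 0 in ExE and A but below 0 in P, and Rps25 was below 0 in all 3. The posterior EPZ005687 library held the highest level of the 6 for 67 of the 72 genes, which was so for 22.8% of all genes. The 5 exceptions were Rpl3, Rpl4, Rplp0, Rps2 and Rps25. All of the 3 EPZ005687 libraries lay above the 3 DMSO libraries for 25 ribosomal protein genes (8.82% of all genes), and below them for Rps25 alone (8.75% of all genes).

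**Figure D2:**
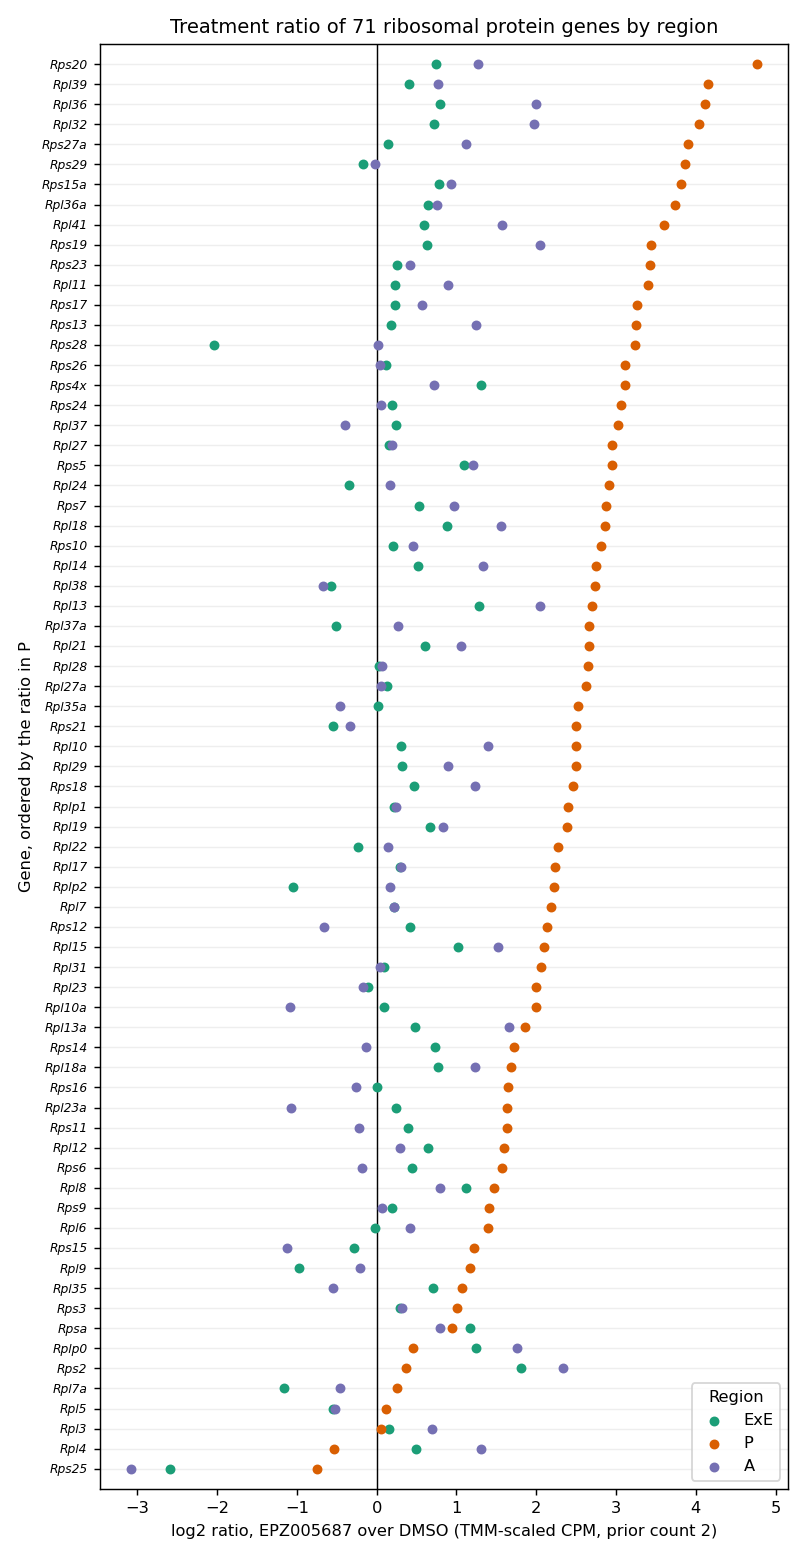
Log2 ratio of EPZ005687 over DMSO in ExE, P and A for 71 ribosomal protein genes, on TMM-scaled CPM with a prior count of 2, ordered by the ratio in P. The P points lie to the right of both others for 66 of them, and Rps25 is the one gene with all 3 points left of 0.

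Across the 72 genes the ratios in ExE and A, which share no library, went together with Pearson's r of 0.70 (Spearman's rho 0.70). Between P and A r was 0.37 (rho 0.35), and between ExE and P it was 0.20 (rho 0.13). The points are genes of 1 family in the same libraries and share the arm, so these are descriptions. The order of levels among the genes was nearly the same in the 3 DMSO libraries (r of log2 CPM 0.96 to 0.98), and in ExE and A with EPZ005687 (r = 0.91). The posterior EPZ005687 library had r between 0.51 and 0.62 with each of the other 5.

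Over the 3 regions together, EPZ005687 against DMSO with region as a term, most ribosomal protein genes had a positive fitted log2 fold change, but none passed the test. The median was 0.95 over the 72 genes and 0.20 over all genes, and 66 of the 72 were positive (56.7% of all genes). In edgeR's quasi-likelihood test 0 of 72 passed an adjusted p of 0.05 (0.0509% of all genes passed as higher and 1.48% as lower). At an unadjusted p under 0.05 there were 21 higher (2.92% of all genes) and 1 lower (5.95% of all genes). DESeq2 called 9 higher (1.01% of all genes) and 1 lower (3.09% of all), and limma-voom called 10 higher (0.233% of all) and 1 lower (2.66% of all). The positive median rested on posterior tissue. Without the posterior EPZ005687 library it was 0.34, beside 0.27 over all genes, and with A and ExE alone it was 0.39, beside 0.29. With library totals in place of TMM scaling the median of all genes was 0.63 and that of the ribosomal protein genes 1.39.

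The highest fitted fold changes belonged to Rpl36, Rpl32, Rps20, Rps19 and Rpl13. Rpl36, of the large subunit, had 69.6, 1087 and 173 CPM in ExE, P and A with EPZ005687, against 39.8, 61.8 and 42.9 CPM with DMSO (log2 fold change 2.29, SE 0.69, edgeR adjusted p = 0.204). Rpl32, also of the large subunit, had 218, 2631 and 413 CPM with EPZ005687, against 132, 159 and 104 CPM with DMSO (log2 fold change 2.23, SE 0.72, edgeR adjusted p = 0.259). In both genes the 3 EPZ005687 values lay above the 3 DMSO values, with P far above A and ExE.

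Rps20, a protein of the head of the small subunit, had 182, 2744 and 281 CPM in ExE, P and A with EPZ005687, against 108, 99.9 and 116 CPM with DMSO. Its fitted log2 fold change was 2.12 (SE 0.82, edgeR adjusted p = 0.431), and its ratio in P was the highest of the family, 27.2-fold. Rps19, needed for maturation of the small subunit and mutated in Diamond-Blackfan anaemia in humans, had 613, 4945 and 1217 CPM with EPZ005687, against 397, 454 and 294 CPM with DMSO (log2 fold change 2.04, SE 0.71, edgeR adjusted p = 0.324). The arms did not overlap in either gene. Rpl13 had 529.9, 1941 and 1101 CPM with EPZ005687, against 217, 298 and 265 CPM with DMSO, and had the lowest adjusted p of the family (log2 fold change 2.02, SE 0.57, edgeR adjusted p = 0.153). Its 3 regional ratios, 2.44-fold in ExE, 6.49-fold in P and 4.14-fold in A, were more even than those of the other 4.

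Rps25 went the other way. This small subunit protein is known for its use by viral internal ribosome entry sites. It had 249.7, 1422 and 203 CPM in ExE, P and A with EPZ005687, against 1507, 2398 and 1715 CPM with DMSO (log2 fold change -2.16, SE 0.68, edgeR adjusted p = 0.235). All 3 EPZ005687 libraries were below all 3 DMSO libraries, with ratios of 0.17-fold in ExE, 0.59-fold in P and 0.12-fold in A. DESeq2 (adjusted p = 0.0098) and limma-voom (adjusted p = 0.0058) called it lower. Its locus (chromosome 9, 44407714 to 44410406) overlaps that of Ccdc84, and whether the counting used strand is not given in the sources used here. The loci of Rpl5, Rpl32, Rpl35, Rps2, Rps20, Rps27a and Rpsa also overlap another coding or long noncoding gene.

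Also among the lowest were Rpl7a, Rpl5 and Rps15, each below 0 in ExE and A and above 0 in P. Rpl5, which carries 5S ribosomal RNA into the large subunit and binds Mdm2, had 2125, 4878 and 2043 CPM in ExE, P and A with EPZ005687, against 3114, 4487 and 2929 CPM with DMSO (log2 fold change -0.32, SE 0.65, edgeR adjusted p = 0.939). Rpl7a, of the large subunit, had 280.2, 929.7 and 534 CPM with EPZ005687, against 630.4, 782 and 733 CPM with DMSO (-0.46, SE 0.54, edgeR adjusted p = 0.892). In both genes the posterior EPZ005687 library was the highest of the 6 and the other EPZ005687 libraries were below all DMSO libraries. The same held for Rps15, which sits near the decoding site and had 205, 767 and 118 CPM with EPZ005687, against 250.1, 329.5 and 259 CPM with DMSO (-0.07, SE 0.58, edgeR adjusted p = 0.986).

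**Figure D3:**
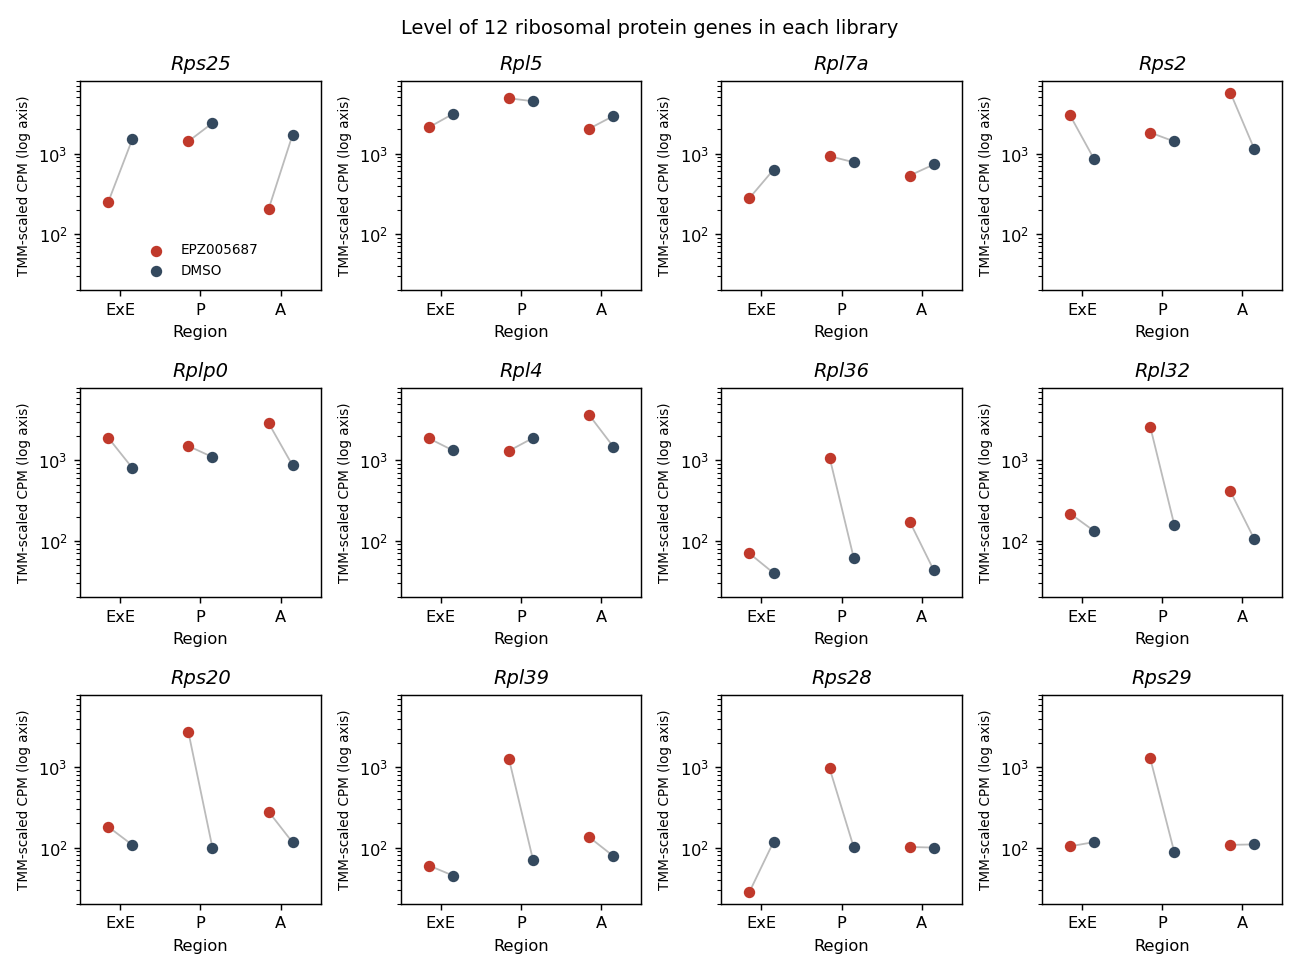
Level of 12 ribosomal protein genes in TMM-scaled CPM (log axis) by region, with EPZ005687 (red) left of DMSO (dark) and a line joining the pair of a region, 1 library per point. Rps25 is lower with EPZ005687 in all 3 regions, Rps2 and Rplp0 are higher in all 3 with the widest gap in A, and the genes of the lower rows from Rpl36 on have their widest gap in P.

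A second pattern was shared by Rps2, Rplp0, Rpl4 and Rpl3, whose ratios were larger in A and ExE than in P. Rps2, which lines the entry of the mRNA channel, had 2991, 1828 and 5744 CPM in ExE, P and A with EPZ005687, against 852, 1416 and 1133 CPM with DMSO. That is 3.51-fold in ExE, 1.29-fold in P and 5.07-fold in A, with a fitted log2 fold change of 1.52 (SE 0.69). Rplp0, the base of the stalk that recruits elongation factors, had 1915, 1509.5 and 2928 CPM with EPZ005687, against 808, 1103 and 867 CPM with DMSO, and its fitted log2 fold change was 1.15 (SE 0.60). In both genes all EPZ005687 libraries were above all DMSO libraries. Rpl4, which reaches into the tunnel through which the new protein leaves, had 1883, 1317 and 3677 CPM with EPZ005687, against 1332.5, 1902 and 1488 CPM with DMSO, and here the arms overlapped. Rpl3, which lies near the site of peptide bond formation, was 1.12-fold in ExE, 1.04-fold in P and 1.61-fold in A. It had 1020.2, 1071 and 1193.5 CPM with EPZ005687, against 915, 1034 and 739.8 CPM with DMSO.

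The difference of the treatment effect between P and the mean of A and ExE was fitted in 1 model with 1 residual degree of freedom, in which A and ExE share an effect. Its median over the 72 genes was 2.06, beside -0.31 over all genes, and 67 of the 72 were positive (43.5% of all genes). In edgeR 0 of 72 passed (0.00728% of all genes passed as higher and 0.0146% as lower), and 37 were higher at an unadjusted p under 0.05 (1.48% of all genes) and 0 lower. The lower direction held 2.70% of all genes at that p. DESeq2 called 3, all higher (0.109% of all genes in either direction), Rps20, Rps28 and Rps29, and limma-voom called 11, all higher (0.313% of all genes). The 3 highest belonged to the small subunit. Rps28, at the exit of the mRNA channel, had 28.1, 967.5 and 102 CPM in ExE, P and A with EPZ005687, against 118, 102 and 100.2 CPM with DMSO, and a difference in log2 effect of 4.27 (SE 1.04, edgeR adjusted p = 0.175). Rps29, a zinc-binding protein of the small subunit, had 104, 1292 and 108 CPM with EPZ005687, against 117, 88.1 and 109.7 CPM with DMSO, and a difference of 3.97 (SE 0.96, edgeR adjusted p = 0.175). The ratio of Rps29 was 0.89-fold in ExE and 0.99-fold in A, while that of Rps28 was 0.24-fold in ExE and 1.02-fold in A. The difference for Rps20 was 3.77 (SE 0.999, edgeR adjusted p = 0.285).

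At the other end of this comparison stood Rps2 (-1.71, SE 1.21), Rpl4 (-1.43, SE 1.16) and Rplp0 (-1.05, SE 1.10), each with an edgeR adjusted p of 1. The matching difference between ExE and the mean of P and A had a median of -1.16 over the 72 genes, beside -0.07 over all genes. No ribosomal protein gene passed (0.0509% of all genes passed as higher and 0.00% as lower). In edgeR 1 was lower (1.20% of all genes) and 0 higher (2.55% of all) at an unadjusted p under 0.05, and DESeq2 (0.116% of all) and limma-voom (0.0437% of all) called 0. The lowest were Rps28 (-3.71, SE 1.46), Rps27a (-2.37, SE 1.57) and Rpl32 (-2.30, SE 1.46), and the highest Rps2 (0.46, SE 1.66), Rpl35 (0.44, SE 1.56) and Rpsa (0.30, SE 1.41). Rps27a, made as a fusion of ubiquitin with a small subunit protein, had 343, 4377 and 829.6 CPM in ExE, P and A with EPZ005687, against 312, 293 and 383 CPM with DMSO. Rpl35, near the exit of the tunnel, had 1884, 2583 and 742 CPM with EPZ005687, against 1159.9, 1231.5 and 1088 CPM with DMSO. Rpsa, whose human gene is mutated in isolated congenital asplenia, had 873, 898 and 599.9 CPM with EPZ005687, against 388, 467 and 347 CPM with DMSO. Rps27a and Rpl35 overlapped between arms in A or ExE, and Rpsa did not overlap.

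ExE against the mean of P and A, with treatment as a term, gave a median of -0.79 over the 72 genes and 0.03 over all genes, with 2 of 72 positive (51.2% of all genes). No member passed in edgeR (0.00% of all genes in either direction), 1 was lower (2.44% of all genes) and 0 higher (3.97% of all) at an unadjusted p under 0.05, and DESeq2 (1.76% of all) and limma-voom (0.255% of all) called 0. The median was -1.31 within the EPZ005687 arm and -0.13 within the DMSO arm. Rpl39, a short protein in the wall of the exit tunnel, was the lowest, with 59.9 CPM in ExE, 1261 in P and 135 in A with EPZ005687 and 44.9, 70.2 and 78.7 CPM with DMSO (log2 fold change -1.90, SE 0.81, edgeR adjusted p = 0.735). In both arms ExE was its lowest region. Rpl27 followed with 145, 1455 and 286 CPM with EPZ005687 and 131, 187 and 250.4 CPM with DMSO (-1.55, SE 0.71), and Rps28 came next (-1.51, SE 0.97). Without the posterior DMSO library 7 ribosomal protein genes passed as lower in ExE (0.650% of all genes did), a value that then leaves the posterior level to the EPZ005687 library alone. The highest were Rpl35 (0.17, SE 0.63), Rpsa (0.10, SE 0.53) and Rpl3 (-0.05, SE 0.57).

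P against A, with treatment as a term, gave a median of 1.36 over the 72 genes and 0.12 over all genes, with 69 of 72 positive (54.1% of all genes). No member passed in edgeR (0.00% of all genes in either direction), 9 were higher (4.31% of all genes) and 0 lower (1.10% of all) at an unadjusted p under 0.05, and DESeq2 (1.29% of all) and limma-voom (0.167% of all) called 0. The median was 2.23 in the EPZ005687 arm and 0.21 in the DMSO arm, and it was 0.16 over both arms without the posterior EPZ005687 library. Rpl37a, of the large subunit, had 2171 CPM in P and 217 in A with EPZ005687, and 343 and 180.0 CPM with DMSO (log2 fold change 2.40, SE 0.85, edgeR adjusted p = 0.686). Rpl36a, near the exit site for tRNA, had 1792 and 164.5 CPM with EPZ005687 and 133 and 97.2 CPM with DMSO (2.24, SE 0.87, edgeR adjusted p = 0.801). In both genes P was above A in both arms. Rps28 (2.27, SE 1.06) had 967.5 CPM in P and 102 in A with EPZ005687, and 102 and 100.2 CPM with DMSO. The lowest were Rps2 (-0.61, SE 0.83), Rpl4 (-0.55, SE 0.79) and Rplp0 (-0.29, SE 0.73), which were lower in P than in A with EPZ005687 and higher in P than in A with DMSO. Without the posterior DMSO library the median was 2.28, a value that leaves the posterior level to the EPZ005687 library alone.

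The make-up of the family's counts showed the same regional split. Counts are not scaled by transcript length here, since lengths were not in the reference used, so only shares of 1 gene across libraries are compared. Rpl5 made up 5.61%, 3.46% and 4.38% of the ribosomal protein counts in ExE, P and A with EPZ005687, against 10.4%, 11.97% and 9.37% with DMSO. Rps25 made up 0.659%, 1.01% and 0.434% with EPZ005687, against 5.03%, 6.40% and 5.49% with DMSO. Rps2 made up 7.89%, 1.30% and 12.3% with EPZ005687, against 2.85%, 3.78% and 3.63% with DMSO. The shares of Rpl5 and Rps25 were thus lower in every EPZ005687 library than in every DMSO library, while that of Rps2 was above all DMSO values in ExE and A and below them in P. The 5 genes with the most counts in a library held 28.5%, 17.0% and 33.8% of the family's counts with EPZ005687 and 26.99%, 30.5% and 27.7% with DMSO. In the posterior EPZ005687 library the counts were spread most evenly over the genes.

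**Figure D4:**
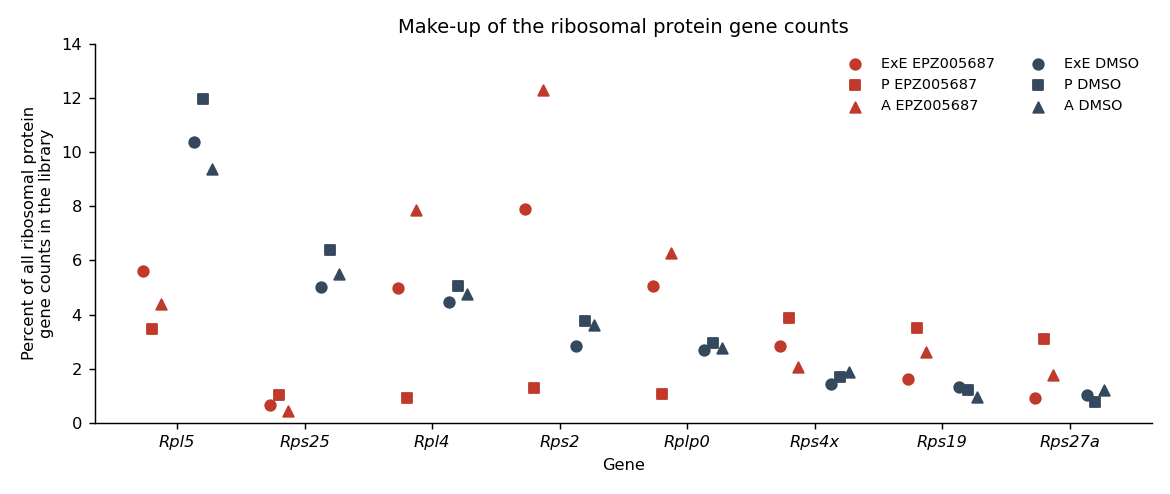
Share of 8 genes in all ribosomal protein gene counts of a library, in percent, for the 3 EPZ005687 libraries (red) left of the 3 DMSO libraries (dark), with regions by marker shape. The DMSO libraries lie close together for each gene, while Rps2 runs from 1.30% in P to 12.3% in A with EPZ005687.

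The posterior ratio went with the number in a gene's name. These numbers follow the migration of the proteins on gels, so that larger proteins tend to have lower numbers. Among 40 large subunit genes with a number, Spearman's rho between number and log2 ratio was 0.68 in P, 0.06 in ExE and -0.07 in A. Among 28 small subunit genes it was 0.53 in P, -0.54 in ExE and -0.15 in A. The median posterior log2 ratio of large subunit genes was 0.71 for numbers 1 to 9, 2.31 for 10 to 19 and 2.66 for 20 and above. For small subunit genes it was 1.49, 2.46 and 3.24. The genes share libraries, and transcript length itself was not measured, so this is a description with no test. The posterior median was 2.50 over the 11 tested genes with a TOP start at the annotated position and 2.44 over 42 without.

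**Figure D5:**
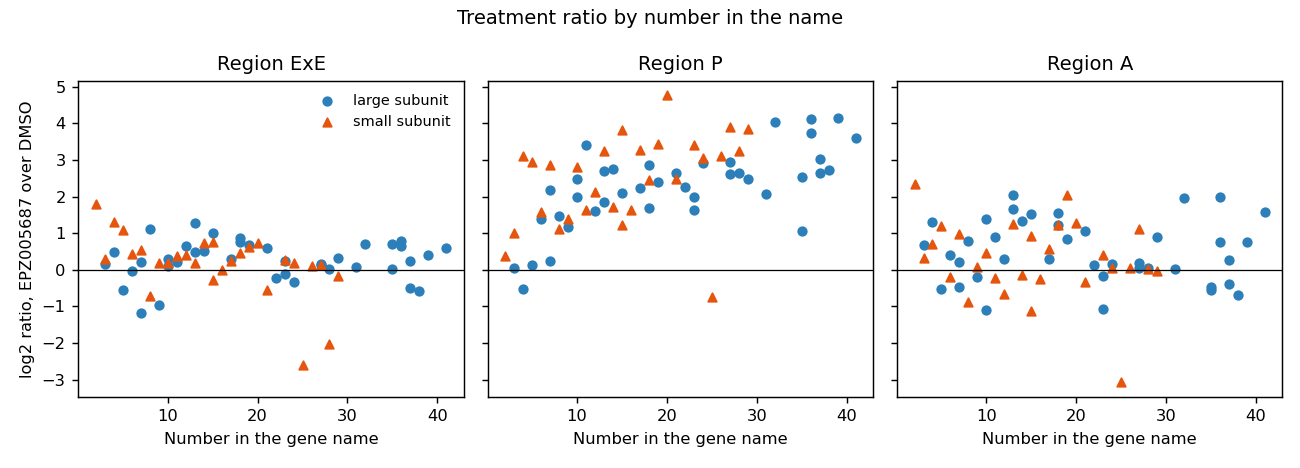
Log2 ratio of EPZ005687 over DMSO against the number in the gene name for large (circles) and small (triangles) subunit genes, in ExE, P and A. In P the points climb with the number, from a median of 0.71 to 2.66 for large subunit genes, and in A and ExE they do not climb.

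The 4 genes on the X chromosome had fitted treatment effects close to each other, between 1.40 and 1.69 with a median of 1.66, beside a median of 0.91 over the other 68. Rps4x, of the small subunit, had 1069.5, 5439 and 962 CPM in ExE, P and A with EPZ005687, against 431, 631 and 585 CPM with DMSO (log2 fold change 1.69, SE 0.68). Rpl10, which joins the large subunit late and reaches toward its active site, had 760.4, 2751 and 923 CPM with EPZ005687, against 614, 487 and 350.5 CPM with DMSO (1.40, SE 0.62). The arms did not overlap in these genes. Rpl36a, with 125 CPM in ExE, 1792 in P and 164.5 in A with EPZ005687 and 80.2, 133 and 97.2 CPM with DMSO (1.64, SE 0.71), and Rpl39 (1.67, SE 0.77), whose values are given above, overlapped in ExE. The arms also differed in sex-linked RNA, whose part in these values was not tested. Xist, the RNA of the inactive X, had 40.1, 6.90 and 17.0 CPM on library totals with EPZ005687, against 258, 134 and 188 with DMSO, and the Y-linked Eif2s3y had 131, 488 and 57 counts with EPZ005687, against 1, 0 and 0 with DMSO.

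The genes with the lowest mean levels showed the posterior shift too. Rps21, of the small subunit, had 43.6, 348.5 and 54.8 CPM in ExE, P and A with EPZ005687, against 64.1, 61.1 and 69.2 CPM with DMSO. Rpl28, of the large subunit, had 82.3, 438 and 63.6 CPM with EPZ005687, against 80.7, 69.2 and 60.8 CPM with DMSO. Rpl22, a large subunit protein that also binds a viral small RNA in human cells, had 70.9, 387 and 102 CPM with EPZ005687, against 83.4, 79.7 and 91.8 CPM with DMSO. In these genes only the posterior EPZ005687 library lay far above the rest. Rpl38, whose mutation in mice alters the axial skeleton and the translation of Hox mRNAs, had 70.9, 709 and 73.9 CPM with EPZ005687, against 106, 105.7 and 119 CPM with DMSO, so it was lower with EPZ005687 in ExE and A and higher in P.

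Of the 76 genes, 4 had almost no counts and were not tested. Rpl26 had 0, 1 and 0 counts in ExE, P and A with EPZ005687 and 0 in each DMSO library. Rpl30 had 0 in each EPZ005687 library and 1, 1 and 0 with DMSO. Rpl34 had 1, 3 and 0 with EPZ005687 and 0, 2 and 1 with DMSO, and Rps27 had 0, 3 and 0 with EPZ005687 and 2 in each DMSO library. The proteins of these genes are known as standard parts of the mammalian ribosome. RefSeq lists 318 pseudogene symbols of the form of a member's name with -ps, of which 7 were in the table, with at most 63 counts in a library. Reads from such copies and from the parent gene can be split or lost in counting. The 76 loci lie on 19 chromosomes, 14 of them on 1 chromosome, and 17 overlap another coding or long noncoding gene and 29 hold a small nucleolar RNA gene. Counts of such genes are uncertain to that extent.

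Ribosomal protein genes outside the naming rule had medians near those of the family. Of 9 tested paralogs and fusions, 0 passed in edgeR, 8 were positive, and the median log2 fold change of EPZ005687 over DMSO was 0.87, with median ratios of 0.18 in ExE, 2.18 in P and 0.30 in A. Rps3a1, the mouse gene for a small subunit protein, had a posterior log2 ratio of 2.28 and Rpl22l1, a paralog of Rpl22, of 3.47. The fusion gene Fau, whose product is split into a ubiquitin-like protein and a ribosomal protein, had 2.41. Gnb2l1, which encodes the ribosome-bound scaffold Rack1, had 0.48.

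Lists of other translation, growth control, proteasome and mitochondrial genes had smaller medians than the family in the fitted effect and the posterior ratio. This did not hold in the other regions. In A the median log2 ratio ran from -0.25 for mTORC1 and translation control to 1.38 for elongation factors, beside 0.31 for the family. In ExE it ran from -0.69 for the Myc family to 0.56 for mTORC1 and translation control, beside 0.25 for the family. The 77 mitochondrial ribosomal protein genes had a median treatment log2 fold change of 0.12 and a posterior ratio of 0.11, and 0 passed in edgeR. Among 18 other mRNAs known to have a TOP start the medians were 0.50 and 0.84, and 0 passed. In that list the posterior log2 ratio was 2.70 for Btf3 and 2.68 for Naca, both of the nascent chain complex, and 2.32 for the nucleolar protein gene Npm1, beside -1.79 for the elongation factor gene Eef2 and -1.11 for the polyA-binding protein gene Pabpc1. Among 52 genes listed as translation initiation factors the medians were -0.14 and -0.42, with 1 called higher and 0 lower, and the 1 called was Eif2s3y. That list also held genes that are not initiation factors themselves, the Eif2ak kinase genes, the Eif4ebp genes and Eif4enif1. Eif5a stood both in it and in the list of elongation factors. Among the 7 elongation factors the medians were 0.18 and -0.30, with 0 called. Among 30 ribosome biogenesis genes they were -0.19 and -1.10, with 0 called higher and 1 lower, Rrn3, a factor of RNA polymerase I (log2 fold change -4.14, edgeR adjusted p = 0.025). Rrn3 had 644, 38 and 120 counts in ExE, P and A with EPZ005687, against 5785, 3710 and 2752 counts with DMSO. In the posterior library with the highest ribosomal protein and Rn45s shares, most biogenesis genes had a ratio below 0. Above 0 were 4 of 30, beside 49.6% of all genes. The 13 genes of mTORC1 and translation control had a median of 0.44 and 0 called, the 10 of the Myc family 0.04 and 0 called, and the 9 of p53 and its targets 0.70 and 0 called. The 35 proteasome subunits had 0.10 and the 35 mitochondrial complex I subunits 0.23, each with 0 called, and their posterior ratios had medians of -0.20 and 0.78. Values above the family's median fitted effect or posterior ratio were found outside these lists. Rn45s had a fitted log2 fold change of 3.84 and a posterior log2 ratio of 6.77. For the 2 tested markers of streak and nascent mesoderm the medians were 1.04 for the fitted effect and -1.10 for the posterior log2 ratio, and for the 2 tested trophoblast markers they were 0.32 and 2.93, with 0 called in either list.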

How the data were processed

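The values are whole-number read counts per gene symbol and library deposited by the authors. That they are unscaled was read from the values, whose totals vary by library. Per the submitters' processing notes, CASAVA 1.8, TopHat2 2.0.9 and BWA were used with mm10. For the counting tool, strand use and annotation, nothing is given in the sources used here. Of 23154 entries, 27 written as dates were left out, and 99.5% of the others matched RefSeq by symbol or synonym.

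A gene entered the fit with 10 counts or more in 2 libraries or more. Fits were made in edgeR 4.0.16 (R 4.3.3) with TMM scaling and the quasi-likelihood test. Region and treatment were additive terms with 2 residual degrees of freedom, and the differences in treatment effect had 1. Adjusted p-values are Benjamini-Hochberg values over all 13744 genes, with a threshold of 0.05. With 1 library per region and treatment, p-values reflect only how these 6 libraries vary, with regions in place of repeats, which may be technical. DESeq2 1.42.0 and limma 3.58.1 (voom) were alternatives. Region ratios have 95% conditional exact binomial intervals, which cover counting error only. A count of 0 allows up to 3 counts, 0.516 CPM in the deepest library and 3.00 in the shallowest. The fitting code was also run on simulated counts with known changes, whose outcome is not given here. That run checks the code and not the design, which has 1 library per region and treatment.

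The members, gene lists and named genes were chosen with earlier results of these data known. Named were the 5 highest and 5 lowest treatment effects, the 3 highest and 3 lowest of each other comparison, the 4 highest and 4 lowest mean levels, X-linked members and members not tested; a gene that the rule would name is not reported here. Genes outside the family were named after their values were seen, from lists already set.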

Additional observations from a re-analysis of the deposited data

Results flagged for a closer look

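In 5 of the 72 ribosomal protein genes looked at, the EPZ005687 library was at least 2-fold above the DMSO library in one region and at least 2-fold below it in another, a share of 6.94% beside 23.8% of all genes tested. With 1 library per region and treatment the difference was not tested. Rps28 had log2 ratios of 3.24 in P and -2.04 in ExE, a difference of 5.28. Rplp2, a protein of the stalk that recruits elongation factors, had 2.23 in P and -1.05 in ExE, a difference of 3.28. It had 60.3, 677 and 135 CPM in ExE, P and A with EPZ005687, against 125, 144 and 119.8 CPM with DMSO. Rpl10a had 1.99 in P and -1.09 in A, a difference of 3.08, and Rpl23a, near the exit of the tunnel, had 1.63 in P and -1.07 in A, a difference of 2.70. Rps15 had 1.22 in P and -1.12 in A, a difference of 2.34.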

How the results depend on the processing

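No paired analysis was possible because the RNA libraries carry no replicate numbers and each region and treatment has 1 library; region was the term that ties libraries together. Of the values for single genes, 306 kept their direction and their side of the threshold, 30 passed it under an alternative and 21 turned direction. The cause was not tested for any of these.

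For EPZ005687 against DMSO, 0 genes passed; 1 passed with no filter on low counts (1.58% of all genes), 10 in DESeq2 (4.10% of all) and 11 in limma-voom (2.89% of all), and from 0 to 1 with 1 library left out (1.25% to 2.50% of all). With library totals in place of TMM, Rpl5 and Rps15 turned to 0.12 and 0.37. Without the region term Rps15 had 0.38, and from the A and P libraries alone 0.094. With 1 library left out it ran from -0.67 to 0.49.

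For ExE against embryonic, leaving out 1 library gave 0 to 7 genes passing (0.00% to 2.86% of all genes), 7 without P DMSO (2.71% of all). Rpl3 had 0.011 with no filter and ran from -0.20 to 0.096 with 1 library left out, Rpl35 from -0.14 to 0.57 and Rpsa from -0.091 to 0.25. For P against A the count ran from 0 to 23 (0.00% to 1.74% of all genes), with 23 without P DMSO (1.74% of all). Rps28 ran from -0.60 to 3.65, Rps2 from -1.57 to 0.16, Rpl4 from -1.33 to 0.12 and Rplp0 from -0.88 to 0.19, and each had turned direction without P EPZ005687. With 1 library of a region left out, the other library of that region adds nothing to the fitted treatment effect.

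For the treatment effect in P minus A and ExE, 2 genes passed with DESeq2 size factors in edgeR (0.298% of all genes), 3 in DESeq2 (0.109% of all) and 11 in limma-voom (0.313% of all). The median was 1.66 with library totals, 2.14 with DESeq2 size factors and in DESeq2, 1.99 with scaling over genes other than the members and Rn45s and 1.94 with no filter. The median of all genes moved too. The family's median lay 2.37 above it in the main fit and 2.37 to 2.54 above it in these settings. In limma-voom the family's median was 2.03 and lay 2.11 above that of all genes. The share of counts in the P and A DMSO libraries was 3.84% and 3.49% without Rn45s and the 20 highest other genes. The smaller total raises the share in every library, those with EPZ005687 included, and the other shares are not given here. Depth limits the genes of lowest counts, in A with EPZ005687 most of all.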
